A study of Mus musculus with 8 samples.

Results

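The CCN family and the YAP/TEAD pathway are represented here by 10 genes: Ccn1, Ccn2, Ccn3, Ccn4 and Ccn5, the coactivator genes Yap1 and Wwtr1, the DNA-binding partner Tead1, and the target genes Ankrd1 and Amotl2. The set was chosen by the rise of Ccn5 in an earlier fit of these data. The other 9 genes were added by family and pathway name, with results of the same contrast already known. All 10 were found by Ensembl identifier among the 55421 identifiers of the table, and all 10 passed the filter on low values, which left 13933 genes to test. RNA was sequenced from 8 libraries of mouse bone marrow derived macrophages (BMDM), cells grown out of marrow, on day 7 of differentiation. The groups were 4 Baf60a KO libraries and 4 WT libraries, and both carry the same cell type, treatment and day in their labels. The series title names C57 mice for all of them. The sources used here do not give how Baf60a was deleted, the age of the mice or whether libraries came from separate animals. The p-values therefore measure the spread between libraries, part of which may be technical.

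As background, YAP (gene Yap1) and TAZ (gene Wwtr1) are transcriptional coactivators that lack a DNA-binding domain of their own. They act in the nucleus on TEAD transcription factors, while the Hippo kinases phosphorylate them and keep them in the cytoplasm. CCN proteins are secreted matricellular proteins that bind integrins and growth factors, and Ccn1 and Ccn2 are classic YAP/TEAD targets in adherent, matrix-producing cells. Baf60a, encoded by Smarcd1, belongs to the BAF (SWI/SNF) complexes, which remodel chromatin.

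Ccn5, Ankrd1, Ccn4 and Ccn2 were higher in every Baf60a KO library than in any WT library, by ratios of mean TPM of 1.77, 1.58, 1.34 and 1.22. TPM is read abundance divided by transcript length and scaled to an equal total in every library. Ccn1, the most abundant CCN transcript after Ccn2, did not pass the test, and neither did Yap1, Wwtr1, Tead1, Amotl2 or Ccn3. A gene was called at an adjusted p under 0.05 in a limma fit over all 13933 tested genes, and "rose" or "fell" is written only of such genes. By that rule 4 of 10 members were called higher in Baf60a KO and 0 lower, beside 4.40% of all tested genes called higher, 1.21% called lower and 5.61% called in either direction. Without Ccn5, whose rise chose the set, 3 of 9 were called. The groups did not overlap for 4 of 10 members and for 15.8% of all tested genes. Since the set was drawn up from this same contrast, these shares are given as a description and nothing is read from them. The log2 fold change was above 0 for 9 of 10 members, with a median of 0.17, beside 0.03 over all tested genes.

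**Figure D1:**
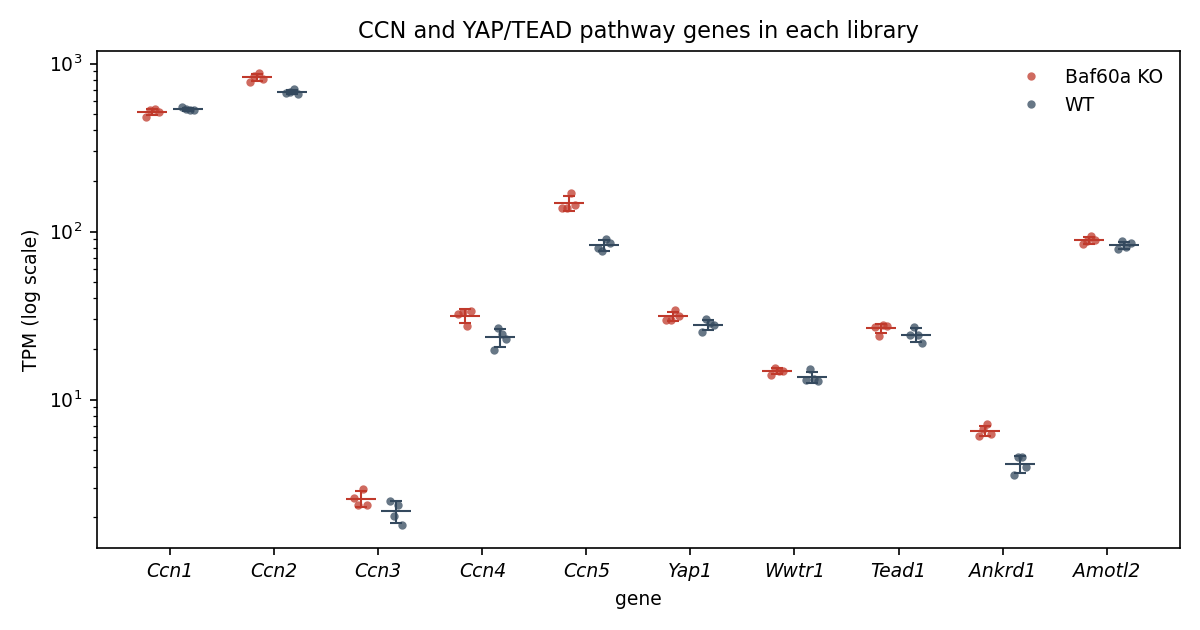
TPM of the 10 genes on a log scale, with 1 point per library, Baf60a KO to the left of WT for each gene, and bars at the mean ± SD (n = 4 each). The Baf60a KO points of Ccn5 lie between 137.53 and 168.78 TPM, all above the WT points at 76.23 to 90.30 TPM, and those of Ankrd1, Ccn4 and Ccn2 also clear the WT points.

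Smarcd1, the gene of Baf60a, gave 10.79, 10.27, 10.85 and 9.91 TPM in Baf60a KO replicates 1 to 4, and 16.25, 14.29, 14.76 and 14.01 TPM in WT replicates 1 to 4. It fell in Baf60a KO (log2 fold change -0.47, SE 0.061, limma adjusted p = 0.00756), in the direction the labels give, with transcript remaining in every KO library. Whether that transcript lacks the deleted stretch is not shown by a gene-level value. Genes over 1 TPM numbered 13727 to 14027 per library. Processed pseudogenes held 12.004% and 12.25% of TPM in WT replicates 3 and 4, against 6.78% to 8.38% in the other 6 libraries. Values without that pair are therefore also given for Ccn5, Ccn4, Yap1, Wwtr1 and Tead1. The split of calls depends on scaling: 613 genes rose and 169 fell, against 503 and 406 with median-of-ratios scaling, 598 and 321 with TPM rescaled over protein-coding genes, and 440 and 254 with quantile normalization.

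Markers of some other cell types differed between the groups. All gene lists here were chosen with earlier results of these data known. Counts called in them are a description, beside 5.61% of all tested genes called in either direction. Of 12 stromal markers, 11 were tested: 7 rose (Thy1, Cnn1, Acta2, Pdgfrb, Postn, Col1a1 and Col3a1), 0 fell and 4 did not pass. The 4 were Col1a2, Pdgfra, Cxcl12 and Dcn, with log2 fold changes of 0.20, 0.06, -0.01 and -0.43 in that order. Their limma adjusted p was 0.0532, 0.713, 0.979 and 0.277. The calls of Col3a1 and Col1a1 ended in 7 and 2 of 20 alternatives in that order, with limma adjusted p up to 0.0852 for Col3a1 under the replicate block and 0.0573 for Col1a1 without Baf60a KO replicate 4, while the other 5 held in all 20. The summed level of the 12 was 6161 to 6479 TPM in Baf60a KO libraries and 4972 to 5430 TPM in WT libraries, so that stromal transcripts were abundant in all 8 cultures labelled as macrophages. Col1a1, a fibrillar collagen chain, averaged 1873 ± 54.0 TPM in Baf60a KO and 1534 ± 76.1 TPM in WT (SD, n = 4 each). Acta2, smooth muscle actin, averaged 1700 ± 38.5 TPM in Baf60a KO and 1241 ± 61.1 TPM in WT. Not every stromal marker was high: Dcn (decorin) averaged 3.96 ± 0.610 TPM in Baf60a KO and 5.92 ± 2.36 TPM in WT, and Lum (lumican) stayed under the filter.

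Macrophage markers were abundant as well. All 7 listed were tested, and 2 (Cd68 and Itgam) rose, 0 fell and 5 did not pass, with sums of 2384 to 2481 TPM in Baf60a KO and 1879 to 2288 TPM in WT. The Cd68 call ended in 13 of 20 alternatives, 7 of them with 1 library left out, and its limma adjusted p reached 0.109 without Baf60a KO replicate 4. Of 6 endothelial markers, 5 were tested: 2 (Pecam1 and Emcn) rose, 0 fell and 3 (Cdh5, Kdr and Vwf) did not pass. The sums were 42.6 to 49.2 TPM in Baf60a KO and 33.1 to 42.5 TPM in WT. Vwf had the opposite sign to the other 4 tested, at 8.50 ± 1.24 TPM in Baf60a KO and 10.7 ± 2.06 TPM in WT (log2 fold change -0.30, limma adjusted p = 0.239). The Emcn call ended in 8 of 20 alternatives, with limma adjusted p up to 0.0944 without Baf60a KO replicate 3, and the Pecam1 call in 2, with adjusted p up to 0.0633 under the replicate block. For the 7 neutrophil markers the sums were 146 to 234 TPM in Baf60a KO and 191 to 283 TPM in WT, with 0 of 4 tested called. The 4 megakaryocyte markers summed to 1006 to 1402 TPM in Baf60a KO and 1405 to 2166 TPM in WT, with 0 of 3 tested called. Nearly all of that sum came from Pf4, and Ppbp, Itga2b and Gp9 each stayed at or under 3.18 TPM in every library. Osteoblast and chondrocyte markers summed to 25.4 to 29.3 TPM in Baf60a KO and 28.9 to 32.5 TPM in WT (7 markers, 0 of 2 tested called), and 6 lymphoid markers to at most 0.29 TPM in Baf60a KO and 0.4 TPM in WT (0 tested). No marker of these 7 lists was at 0 in every library. In bulk RNA, fewer cells of a type and less RNA per cell cannot be told apart, and the part of these markers in the results on CCN and pathway genes was not tested.

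Among the CCN ligands, Ccn5 (Wisp2, ENSMUSG00000027656, chr2:163820861-163833146, mm10, plus strand) is the gene whose rise chose the set. CCN5 is the one family member without the C-terminal cystine-knot domain, and it is known from rat vascular smooth muscle as a growth inhibitor. Its transcript was at 138.28, 137.53, 168.78 and 143.24 TPM in Baf60a KO replicates 1 to 4, and at 80.32, 76.23, 90.30 and 85.11 TPM in WT replicates 1 to 4. Baf60a KO replicate 3 was the highest of all 8 libraries, and the lowest KO library stood above the highest WT library. The means were 147 ± 14.8 TPM in Baf60a KO and 82.99 ± 6.08 TPM in WT (SD, n = 4 each). The log2 fold change of TPM + 1 was 0.81 (SE 0.078, 95% interval 0.64 to 0.99), given as a description with no test. It lay above that of 99.7% of tested genes. Over 20 alternative settings it ranged between 0.75, without Baf60a KO replicate 3, and 0.90, without WT replicates 3 and 4 together. By mean level Ccn5 ranked 990 among the 13933 tested genes in Baf60a KO and 1777 in WT.

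Ccn2 (Ctgf, ENSMUSG00000019997, chr10:24595442-24598683, plus strand), connective tissue growth factor, was the most abundant member in both groups. It was at 774.83, 848.00, 873.86 and 812.08 TPM in Baf60a KO replicates 1 to 4, and at 671.97, 673.68, 702.51 and 655.65 TPM in WT replicates 1 to 4. The groups did not overlap, with replicate 3 highest in each. The means were 827 ± 43.1 TPM in Baf60a KO and 676 ± 19.5 TPM in WT (SD, n = 4 each). Ccn2 rose, with a log2 fold change of 0.29 (SE 0.045, 95% interval 0.19 to 0.39, limma adjusted p = 0.0133). The call held in 18 of 20 alternatives, with adjusted p from 0.00688 to 0.0517, and ended without Baf60a KO replicate 2 (0.0517) and without Baf60a KO replicate 4 (0.0501). As for all members but Ccn5, this p comes from a contrast known when the genes were picked and is no independent support. Gm15270, a transcript on the opposite strand, overlaps Ccn2 and is 100% identical to it over 347 bases. At 0.7 to 1.93 TPM it is small beside Ccn2, and without strand information the reads of both cannot be told apart there.

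Ccn4 (Wisp1, ENSMUSG00000005124, chr15:66891320-66923201, plus strand), known as a WNT1-inducible secreted protein, was at 32.18, 33.24, 27.38 and 33.61 TPM in Baf60a KO replicates 1 to 4. In WT replicates 1 to 4 it was at 19.79, 26.71, 24.68 and 22.89 TPM. The groups came within 1 TPM of each other, since the lowest KO library, replicate 3, was at 27.38 TPM and the highest WT library, replicate 2, at 26.71 TPM. The means were 31.6 ± 2.88 TPM in Baf60a KO and 23.5 ± 2.93 TPM in WT (SD, n = 4 each), with a log2 fold change of 0.41 (SE 0.098, 95% interval 0.19 to 0.64, limma adjusted p = 0.0458). This call was fragile. It held in 6 of 20 alternatives and ended when any library other than WT replicate 2 was left out, with adjusted p up to 0.127 without Baf60a KO replicate 4. With WT replicates 3 and 4 left out together the log2 fold change was 0.44 and the adjusted p 0.0967.

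Ccn1 (Cyr61, ENSMUSG00000028195, chr3:145646976-145649981, minus strand), an adhesion-promoting integrin ligand, did not pass the test, and its difference had the opposite sign to that of Ccn2. It was at 483.73, 529.88, 533.21 and 515.06 TPM in Baf60a KO replicates 1 to 4, and at 548.93, 538.47, 526.25 and 525.89 TPM in WT replicates 1 to 4. The groups overlapped, and Baf60a KO replicate 1 was the lowest library. The means were 515 ± 22.6 TPM in Baf60a KO and 535 ± 11.04 TPM in WT (SD, n = 4 each). Its log2 fold change came to -0.05 (SE 0.041, limma adjusted p = 0.489). The 95% interval was -0.15 to 0.04, which covers the spread between libraries and not the choice of scaling. Ccn1 was called in 0 of 20 alternatives. Over these its log2 fold change ranged between -0.09, with median-of-ratios scaling, and -0.02, without Baf60a KO replicate 1.

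Ccn3 (Nov, ENSMUSG00000037362, chr15:54745702-54754039, plus strand), a CCN ligand known to bind Notch1, was the lowest member, at 2.35 to 2.95 TPM in Baf60a KO and 1.79 to 2.50 TPM in WT. The groups overlapped, and the log2 fold change was 0.17 (SE 0.10, 95% interval -0.06 to 0.40, limma adjusted p = 0.359). Its interval was the widest of the 10, so a change of the size of Ccn2 is inside it. Ccn6 (Wisp3), the remaining family member, was listed at 0 in all 8 libraries.

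The make-up of the CCN transcripts differed between the groups. The 5 CCN genes summed to 1432 to 1606 TPM in Baf60a KO libraries and 1291 to 1346 TPM in WT libraries. Ccn2 made up 53.9% to 54.7% of that sum in Baf60a KO and 50.8% to 52.2% in WT. Ccn1 made up 33.2% to 34.2% in Baf60a KO and 39.1% to 41.5% in WT. Ccn5 made up 8.87% to 10.5% in Baf60a KO and 5.79% to 6.71% in WT. None of these ranges overlapped between the groups. The 15.8% of all tested genes given above refers to levels of single genes, and no such share was counted for quotients. Shares of a common sum are tied to each other: that of Ccn1 falls where Ccn2 and Ccn5 are higher, and Ccn1 itself was not called. The ratio of Ccn2 to Ccn1 within a library was 1.58 to 1.64 in Baf60a KO and 1.22 to 1.33 in WT, and that of Ccn5 to Ccn1 was 0.260 to 0.317 in Baf60a KO and 0.142 to 0.172 in WT. A ratio within a library does not depend on how the library is scaled. Since Ccn5 chose the set and Ccn2 was picked with the contrast known, these shares and ratios are a description with no test.

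Within the family, CCN5 is the shortest protein. The GENCODE M21 coding sequences give 379 residues for CCN1, 348 for CCN2, 354 for CCN3, 367 for CCN4 and 251 for CCN5. Ccn5 has 4 coding exons and each of the other 4 genes has 5. Aligned pairs were 40.2% identical (CCN1 and CCN5) to 51.5% identical (CCN1 and CCN2), and CCN5 was 40.2% to 45.9% identical to the others. No transcript of another member matched any member at 95% identity or more over 200 bases or more.

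Receptors known to bind CCN proteins were taken as a list of 12, all tested: 3 rose, 0 fell and 9 did not pass, with a median log2 fold change of 0.15. Over all tested genes 5.61% were called in either direction and the median was 0.03. The list was chosen with earlier results of these data known, so its counts are a description. Itgb5, the integrin β5 chain, averaged 106 ± 2.17 TPM in Baf60a KO and 87.7 ± 5.51 TPM in WT (log2 fold change 0.27, limma adjusted p = 0.0240). Itgam and Itgb2, the chains of the macrophage integrin Mac-1, rose as well. Itgam averaged 77.0 ± 5.96 TPM in Baf60a KO and 56.5 ± 6.56 TPM in WT (log2 fold change 0.44, adjusted p = 0.0285), and it also stands in the macrophage list above. Itgb2 averaged 230 ± 7.65 TPM in Baf60a KO and 195 ± 15.01 TPM in WT (log2 fold change 0.24, adjusted p = 0.0467). These 3 calls ended in 7, 8 and 12 of 20 alternatives for Itgb5, Itgam and Itgb2 in that order. The adjusted p reached 0.0768, 0.0885 and 0.127, each without Baf60a KO replicate 4. The most abundant receptor chain, Itgb1, averaged 470 ± 10.95 TPM in Baf60a KO and 440 ± 23.7 TPM in WT (adjusted p = 0.252). The endocytic receptor Lrp1 averaged 134 ± 15.7 TPM in Baf60a KO and 114 ± 5.49 TPM in WT (adjusted p = 0.153).

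The coactivators and their DNA-binding partner were expressed in all libraries, and none was called. Yap1 (ENSMUSG00000053110, chr9:7931999-8004596, minus strand) was at 29.75, 29.84, 34.03 and 31.42 TPM in Baf60a KO replicates 1 to 4, and at 25.39, 30.04, 28.49 and 27.64 TPM in WT replicates 1 to 4. The groups overlapped through WT replicate 2, which lay above the 2 lowest KO libraries. Its log2 fold change came to 0.16 (SE 0.065, limma adjusted p = 0.190), and its single-gene 95% interval was 0.01 to 0.31. Wwtr1 (ENSMUSG00000027803, chr3:57455649-57575910, minus strand) was at 14.05 to 15.44 TPM in Baf60a KO and 12.90 to 15.16 TPM in WT (log2 fold change 0.11, 95% interval -0.03 to 0.25, adjusted p = 0.326). Tead1 (ENSMUSG00000055320, chr7:112679318-112906807, plus strand), a TEAD factor that binds DNA for both coactivators, was at 24.05 to 27.73 TPM in Baf60a KO and 21.65 to 27.10 TPM in WT (log2 fold change 0.12, 95% interval -0.04 to 0.29, adjusted p = 0.371). Their fold changes stayed above 0 in all 20 alternatives and none was called in any. With WT replicates 3 and 4 left out together, the log2 fold change was 0.17 for Yap1, 0.06 for Wwtr1 and 0.05 for Tead1. The limma adjusted p was then 0.257, 0.632 and 0.726 in that order. The ratio of Yap1 to Wwtr1 was 1.93 to 2.28 in Baf60a KO and 1.94 to 2.14 in WT, with overlapping groups. The proteins YAP and TAZ, of 488 and 452 residues, were 53.4% identical over 403 aligned residues.

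The other TEAD factors and the VGLL proteins, which bind TEADs as alternative cofactors, were a list of 7, of which 4 were tested. Vgll3 rose, at 63.1 ± 2.34 TPM in Baf60a KO and 54.0 ± 3.02 TPM in WT (SD, n = 4 each; log2 fold change 0.22, limma adjusted p = 0.0422). That call ended in each of the 8 fits with 1 library left out, where adjusted p reached 0.117 (without Baf60a KO replicate 3). Tead2 averaged 28.9 ± 1.16 TPM in Baf60a KO and 25.2 ± 1.39 TPM in WT (adjusted p = 0.0746), and Vgll4 averaged 13.5 ± 0.602 TPM in Baf60a KO and 11.7 ± 0.813 TPM in WT (adjusted p = 0.105). The median log2 fold change of the 4 was 0.19, and 1 of them was called, beside 5.61% of all tested genes. Tead4 was under the filter, and Vgll1 and Vgll2 were listed at 0 in all libraries.

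The kinases and upstream regulators of the Hippo pathway were a list of 24, of which 22 were tested: 2 rose, 0 fell and 20 did not pass, with a median log2 fold change of 0.10. Of all tested genes, 5.61% were called in either direction. Ajuba, a LIM protein known to restrain the LATS kinases, averaged 20.5 ± 0.679 TPM in Baf60a KO and 17.7 ± 0.314 TPM in WT (log2 fold change 0.20, limma adjusted p = 0.0367). Taok3, a kinase of the family that acts upstream of the Hippo kinases, averaged 28.7 ± 0.475 TPM in Baf60a KO and 24.7 ± 1.35 TPM in WT (log2 fold change 0.21, adjusted p = 0.0418). Each call ended in 7 of the 8 fits that left out 1 library, with adjusted p up to 0.108 for Ajuba and 0.122 for Taok3, both without Baf60a KO replicate 4. The most abundant kinases were not called. Map4k4 averaged 109.8 ± 2.17 TPM in Baf60a KO and 111 ± 7.46 TPM in WT (adjusted p = 0.909), and Stk25 averaged 76.4 ± 3.03 TPM in Baf60a KO and 68.6 ± 2.16 TPM in WT (adjusted p = 0.0759). The core kinases Lats1 and Lats2 were not called either, with log2 fold changes of 0.07 for Lats1 and 0.15 for Lats2.

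**Figure D2:**
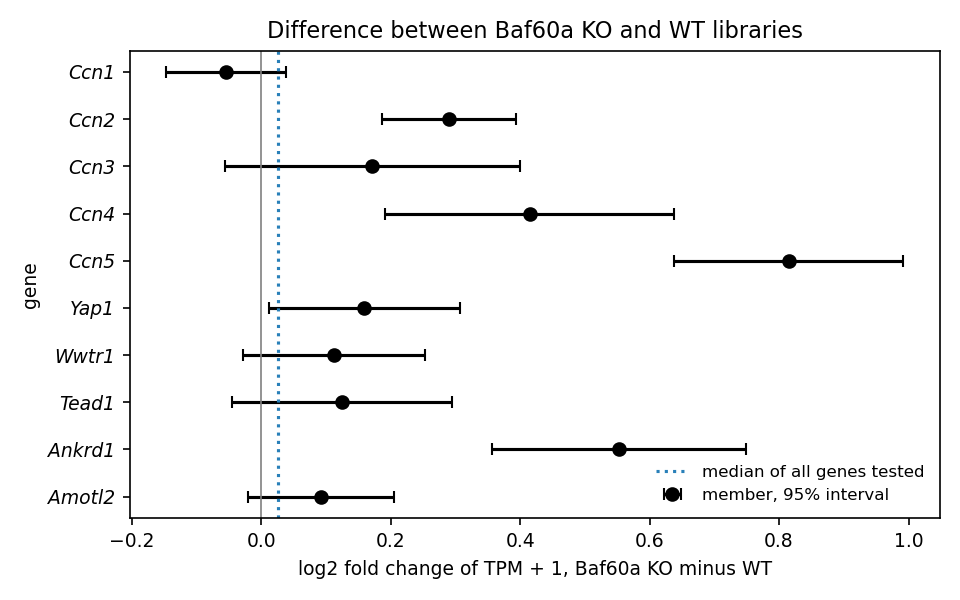
Log2 fold change of TPM + 1, Baf60a KO minus WT, for each of the 10 genes, with its 95% interval from limma (4 libraries per group). The dotted line is the median over all 13933 tested genes, at 0.03, and the intervals of Ccn5, Ankrd1, Ccn4 and Ccn2 lie wholly to its right while that of Ccn1 spans 0. Ccn5 was chosen by its rise in this contrast and the other genes with the contrast known, so the intervals are a description.

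The 2 targets in the set differed in size of change. Ankrd1 (ENSMUSG00000024803, chr19:36111961-36120099, minus strand) encodes an ankyrin repeat protein and is widely used as a readout of YAP activity. It was at 6.08, 6.66, 7.14 and 6.25 TPM in Baf60a KO replicates 1 to 4, and at 3.54, 4.54, 4.54 and 3.96 TPM in WT replicates 1 to 4. Every KO library stood above every WT library. The means were 6.53 ± 0.473 TPM in Baf60a KO and 4.15 ± 0.487 TPM in WT (SD, n = 4 each), and the log2 fold change was 0.55 (SE 0.086, 95% interval 0.36 to 0.75, limma adjusted p = 0.0131). Among the members with a p, it alone was called in all 20 alternatives, with a log2 fold change of 0.49 to 0.65 and an adjusted p of at most 0.0479, reached without Baf60a KO replicate 2. Since 1 was added to TPM before the log, the fold change of so low a gene is understated.

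Amotl2 (ENSMUSG00000032531, chr9:102716672-102733418, plus strand) encodes an angiomotin-like protein that binds YAP and holds it outside the nucleus, and it is a YAP target itself. It was at 84.32, 87.62, 93.57 and 89.41 TPM in Baf60a KO replicates 1 to 4, and at 78.70, 87.74, 80.80 and 85.34 TPM in WT replicates 1 to 4. The groups overlapped through WT replicates 2 and 4. The means were 88.7 ± 3.85 TPM in Baf60a KO and 83.1 ± 4.13 TPM in WT (SD, n = 4 each), with a log2 fold change of 0.09 (SE 0.050, 95% interval -0.02 to 0.21, limma adjusted p = 0.311). The ratio of Ankrd1 to Amotl2 was 0.0699 to 0.0763 in Baf60a KO and 0.0450 to 0.0562 in WT, with no overlap between the groups. How many other gene pairs do so was not counted.

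The wider set of targets was a published human YAP/TAZ target signature, taken by mouse gene name without the members, with 18 genes listed and 16 tested. Of these 2 rose, 1 fell and 13 did not pass, with a median log2 fold change of 0.13. Of all tested genes, 5.61% were called in either direction. Ccdc80, a secreted matrix protein, averaged 264 ± 4.15 TPM in Baf60a KO and 167 ± 16.4 TPM in WT (SD, n = 4 each; log2 fold change 0.66, limma adjusted p = 0.00203). Igfbp3, which binds insulin-like growth factors, averaged 12.8 ± 2.30 TPM in Baf60a KO and 6.99 ± 1.27 TPM in WT (log2 fold change 0.79, adjusted p = 0.0260). Gadd45a, a stress and DNA damage response gene, moved the other way, at 279 ± 17.6 TPM in Baf60a KO and 449 ± 26.6 TPM in WT (log2 fold change -0.68, adjusted p = 0.00114). The calls of Ccdc80 and Gadd45a held in all 20 alternatives, while that of Igfbp3 ended in 7, with adjusted p up to 0.0734 without Baf60a KO replicate 4. The abundant targets Axl, a receptor tyrosine kinase, and Myof, a membrane repair protein, were not called. Axl averaged 123 ± 8.31 TPM in Baf60a KO and 109 ± 5.80 TPM in WT (adjusted p = 0.111), and Myof averaged 82.6 ± 5.32 TPM in Baf60a KO and 78.4 ± 7.28 TPM in WT (adjusted p = 0.608). Lats2 and Ptpn14 stand in both this list and the Hippo list.

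**Figure D3:**
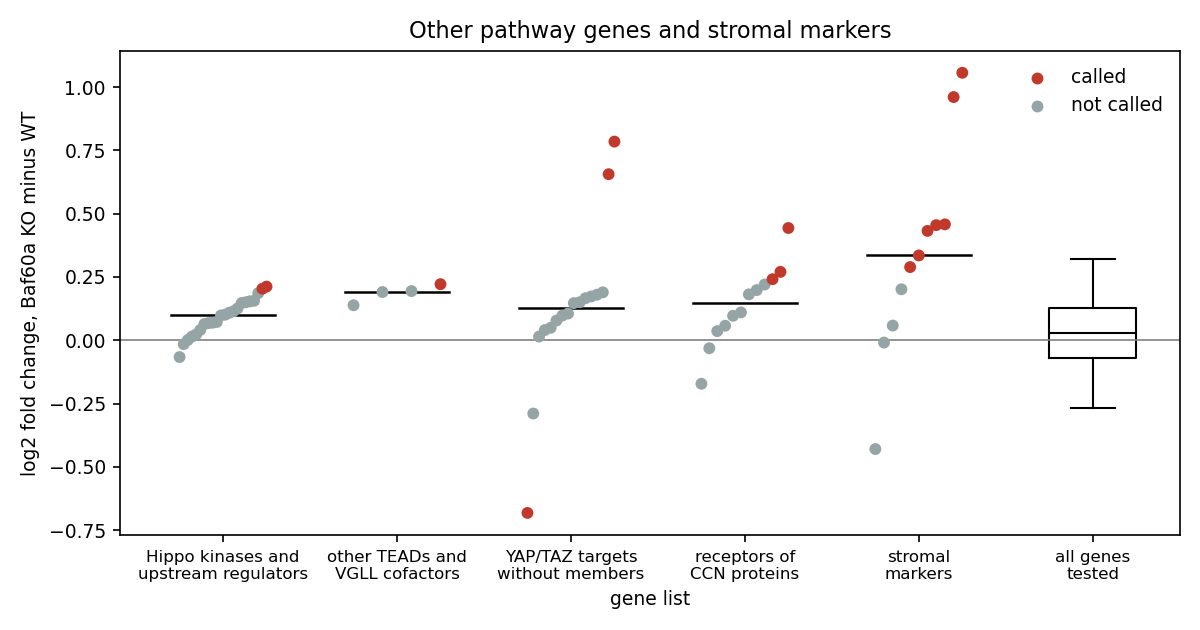
Log2 fold change, Baf60a KO minus WT, of every tested gene of the 4 pathway lists and the stromal marker list, with called genes in red and a line at each list's median. The box shows the quartiles of all 13933 tested genes with whiskers at the 5th and 95th percentiles, and the medians run between 0.10 for the Hippo list and 0.34 for the stromal markers, beside 0.03 for all tested genes.

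The promoters of the pathway genes are shown because TEAD factors recognise the core GGAATG. RefSeq promoter windows (GRCm38.p6), from 250 bases before to 50 bases after each start, were matched for 5 of 10 members: Ccn1, Yap1, Wwtr1, Ankrd1 and Amotl2. Ccn2, Ccn3, Ccn4, Ccn5 and Tead1 were not matched. All 5 matched members hold GGAATG on either strand in at least 1 window, and Ankrd1 holds it at 2 places, beside 14.7% of 32851 RefSeq windows of 300 bases. A match describes letters and not a bound site. The 30 bases around each match are given 5′ to 3′ on the strand of the gene, with the core, or its reverse complement CATTCC, in capitals.
Ccn1 (chr3:145650071-145650100, minus strand): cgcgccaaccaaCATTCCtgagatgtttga
Yap1 (chr9:8004720-8004749, minus strand): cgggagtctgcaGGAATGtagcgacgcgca
Wwtr1 (chr3:57576029-57576058, minus strand): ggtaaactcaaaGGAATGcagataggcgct
Ankrd1, far match (chr19:36120037-36120066, minus strand): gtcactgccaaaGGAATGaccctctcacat
Ankrd1, near match (chr19:36119950-36119979, minus strand): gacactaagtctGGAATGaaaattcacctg
Amotl2 (chr9:102717727-102717756, plus strand): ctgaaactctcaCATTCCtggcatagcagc

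Counted in bases before the RefSeq start, the cores began at 103 in Ccn1, 141 in Yap1, 210 and 123 in Ankrd1, and 65 in Amotl2. Wwtr1 has 2 RefSeq starts, and its core began 136 bases before one and 170 bases before the other. In GENCODE M21, which has earlier starts for some transcripts, the 30-base stretches of Ankrd1 and Amotl2 lie within exons of these same genes, and those of Ccn1, Yap1 and Wwtr1 lie outside every transcript. Of the matched members, Ankrd1 was called and the other 4 did not pass the test. No matched member lacked the core, so its presence cannot be set against the change. The AP-1 motif TGANTCA was in 0 of the matched members' windows and in 7.81% of all windows, which says only that these letters are not there.

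Set against the stromal markers of the same library, the members showed different patterns. Per 1000 TPM of the 12 stromal markers, Ccn5 was at 21.5 to 26.1 TPM in Baf60a KO and 14.04 to 18.2 TPM in WT, and Ankrd1 at 0.965 to 1.10 TPM in Baf60a KO and 0.701 to 0.913 TPM in WT. Both stayed apart between the groups on this scale. Ccn2 was at 125 to 135 TPM in Baf60a KO and 124 to 141 TPM in WT, and Ccn4 at 4.23 to 5.22 TPM in Baf60a KO and 3.92 to 4.96 TPM in WT, so that both overlapped. Ccn1 was at 78.5 to 82.7 TPM in Baf60a KO and 99.2 to 109 TPM in WT, below every WT library. These quotients are a description with no test. How many of all tested genes stay apart on this scale was not counted, so nothing is read from the separation. The summed denominator was itself higher in every Baf60a KO library than in any WT library, with 7 of its 12 markers called. It rests mainly on Col1a1, Acta2 and Col1a2, and Col1a2 did not pass the test (limma adjusted p = 0.0532). The ratio of mean TPM, Baf60a KO over WT, was 1.22 for Col1a1, 1.37 for Acta2 and 1.15 for Col1a2. For Thy1 and Cnn1 of the same list it was 2.44 and 1.99, above the 1.77 of Ccn5 and the 1.58 of Ankrd1. The separation of Ccn5 and Ankrd1 on this scale thus holds for the summed list and not for each marker.

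**Figure D4:**
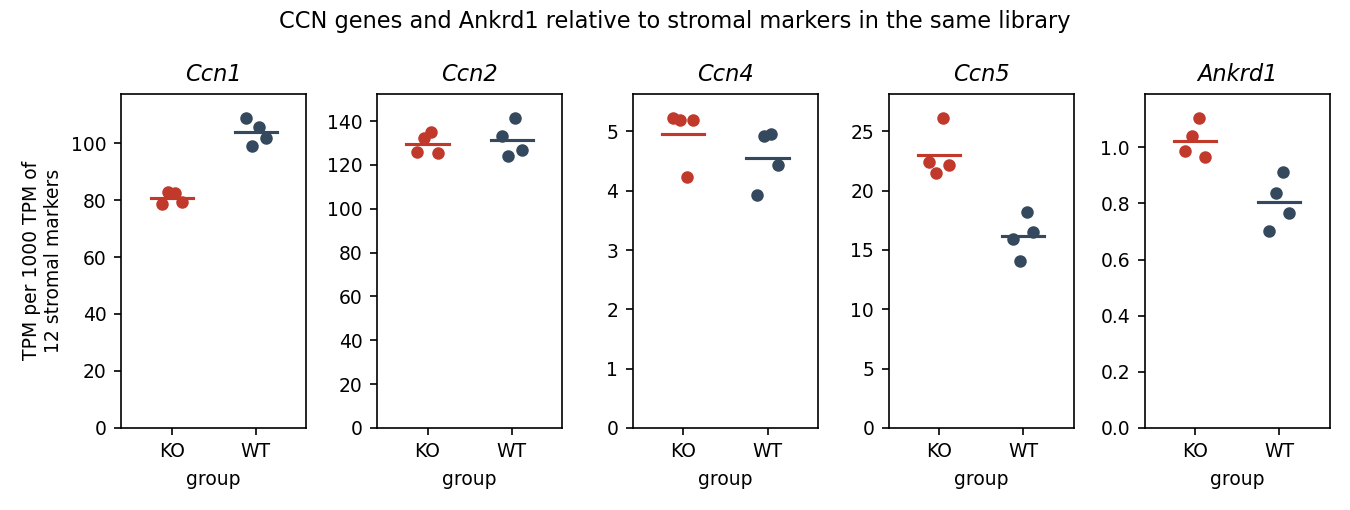
TPM of 5 genes per 1000 TPM of the 12 stromal markers in the same library, with Baf60a KO left of WT, 1 point per library and a line at the group mean (n = 4 each). Ccn5 and Ankrd1 are higher in every Baf60a KO library than in any WT library, Ccn2 and Ccn4 overlap, and Ccn1 is lower in every Baf60a KO library.

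By mean level, the order in Baf60a KO was Ccn2, Ccn1, Ccn5, Amotl2, Ccn4, Yap1, Tead1, Wwtr1, Ankrd1 and Ccn3. In that order only Ccn4 and Yap1 had overlapping ranges as neighbours. In WT the order was Ccn2, Ccn1, Amotl2, Ccn5, Yap1, Tead1, Ccn4, Wwtr1, Ankrd1 and Ccn3. There the ranges of Amotl2 and Ccn5 overlapped, as did those of Yap1 and Tead1 and those of Tead1 and Ccn4. The members thus spanned the range of expression, with mean-level ranks among the 13933 tested genes of 191 in Baf60a KO and 221 in WT for Ccn2, and of 12012 in Baf60a KO and 12340 in WT for Ccn3. The spread between libraries, as SD in percent of the mean, was 3.88% to 10.9% in Baf60a KO, lowest for Wwtr1 and highest for Ccn3. In WT it was 2.06% to 14.6%, lowest for Ccn1 and highest for Ccn3. Baf60a KO replicate 3 was the highest KO library for 8 of 10 members and the lowest for Ccn4, and the members share these libraries.

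The 5 genes most like Ccn5 over the 8 libraries, by Pearson's r of log2(TPM + 1) among 10999 protein-coding genes with mean TPM over 2, were Cox7a2l, Mfge8, Wfdc17, Olfml2b and Cpq. Their r was 0.993, 0.992, 0.990, 0.987 and 0.986 in that order, and 0.900, 0.932, 0.916, 0.850 and 0.931 once group means were subtracted. The points share libraries and a group difference, and the genes were picked for the highest r, so r is a description. Wfdc17 averaged 583 ± 60.1 TPM in Baf60a KO and 348 ± 36.6 TPM in WT, and Mfge8, which encodes a secreted bridge to apoptotic cells, averaged 322 ± 14.6 TPM in Baf60a KO and 267 ± 6.57 TPM in WT. Olfml2b averaged 14.9 ± 1.49 TPM in Baf60a KO and 9.87 ± 0.421 TPM in WT. Cox7a2l and Cpq moved less, at 293 ± 5.37 TPM in Baf60a KO and 265 ± 3.26 TPM in WT for Cox7a2l, and at 43.9 ± 0.745 TPM in Baf60a KO and 41.2 ± 0.472 TPM in WT for Cpq.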

How the data were processed

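Total RNA from 8 BMDM libraries was sequenced as paired reads of 51 bases with a NEBNext Ultra RNA kit, per the labels' protocols. The tools named are bcl2fastq and Salmon 1.2.0, with build mm10, per the submitters' processing notes. Not given in the sources used here are the annotation, the way transcripts were summed to genes and whether strand was used. In the deposited table there is 1 TPM value per gene and library. That unit is inferred: each library sums to 1000000 within rounding. TPM keeps no read depth, so the depth of single libraries is unknown and no counting interval is given. A change in abundant transcripts moves all others on this scale.

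Groups and replicate numbers came from the sample titles. Of 55421 identifiers, 55240 matched a symbol, with coordinates from GENCODE M21 on the same assembly as mm10. Genes above 1 TPM in 4 or more libraries were compared as log2(TPM + 1) by limma 3.58.1 (R 4.3.3) with group as the only term and a mean-variance trend. P-values were adjusted by Benjamini-Hochberg over all 13933 tested genes, with 0.05 as threshold. Intervals are limma's 95% intervals, and fold changes are Baf60a KO minus WT. The members and the gene lists were chosen with earlier results of these data known. One macrophage marker is not reported here and was left out of its list. From each pathway list the text names called genes, up to 4 by smallest adjusted p, and the 2 most abundant genes not called. The called genes of the stromal, endothelial and macrophage lists are named too. Others named from the lists include Lats1, Lats2, Ptpn14, Tead4, Vgll1, Vgll2, Dcn, Lum, Col1a2, Pdgfra and Cxcl12. They also include Cdh5, Kdr, Vwf, Pf4, Ppbp, Itga2b and Gp9, and all of these were chosen after their values were seen. Alternatives covered the pseudocount, the filter, the variance model, library weights, scaling, the replicate block, leaving out each library, and leaving out WT replicates 3 and 4. The fit was tested on simulated data. Transcripts were compared with BLAST 2.17.0 (at least 95% identity over 200 bases) and proteins were aligned with Biopython 1.88. Promoter sequences are from RefSeq (GRCm38.p6).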

Additional observations from a re-analysis of the deposited data

Results flagged for a closer look

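In 2 of 76 groups of 4 libraries examined, 1 library stood far from the other 3, past the 95% critical value of Dixon's test, which chance passes in about 5% of groups. Axl was at 135.86 TPM in Baf60a KO replicate 3, the highest of its group, with a gap of 0.953 of the group's range to the nearest library. Pecam1 was at 8.31 TPM in WT replicate 1, the highest of its group, with a gap of 0.857 of the range. None of the 10 CCN and pathway members was among them.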

How the results depend on the processing

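All 10 members kept the sign of their fold change in the alternatives run, and the lost calls of Ccn2 and Ccn4 are given above. The 782 called genes (613 higher, 169 lower) became 364 (292 and 72) with no filter on low values, and 372 (201 and 171) without WT replicates 3 and 4. With the replicate number as a replicate block they became 209 (146 and 63). No shared signal by replicate number was seen: deviations of same-numbered libraries correlated at -0.113 to 0.0124, and 0 KO libraries correlated best with their own number. With 4 libraries per group, this does not show that the libraries were unpaired. Under the block Ccn4 was not called (adjusted p = 0.0977), while Ccn2 and Ankrd1 were. Falls numbered 406 with median-of-ratios scaling, 321 with TPM rescaled over protein-coding genes and 254 with quantile normalization. Leaving out 1 library gave 156 to 679 calls, 120 to 532 higher and 36 to 235 lower. It gave 0 to 3 called receptors, 0 to 1 Hippo genes and 0 TEAD cofactors. Called receptors, 3 in the reported fit, were 1 with no filter, 1 under the block and 0 without WT replicates 3 and 4. Called Hippo genes, 2 in the reported fit, were 1 with no filter, without a trend or over protein-coding genes, and 0 with the block, median-of-ratios, quantile normalization or WT replicates 3 and 4 left out. The 1 called TEAD cofactor became 0 with no filter, without a trend, with the block, with median-of-ratios, with quantile normalization or without WT replicates 3 and 4. The sign turned for Map4k4 without WT replicate 2 (log2 fold change 0.027, in a range of -0.0494 to 0.027 with 1 library left out) and for Myof without WT replicates 3 and 4 (-0.0157). For these changes the cause was not tested. TPM holds no read counts, so count-based alternatives were not run.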
